A study of Neurospora crassa with 8 samples.

Results

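Heat shock proteins are molecular chaperones: they bind unfolded or aggregated proteins, hold them in solution, refold them or help them enter an organelle. In Neurospora crassa, a filamentous fungus, 6 of their genes were followed here: hsp70-1 (NCU09602), hsp80 (NCU04142), hsp30 (NCU09364), hsp98 (NCU00104), hsp60 (NCU01589) and grp78 (NCU03982). They were chosen by locus tag from a table of 9730 genes, by a rule that uses no measured value but with earlier results of these data known. Each of the 6 passed the filter on low values that left 8219 genes for testing. All 6 carry these symbols in the RefSeq gene table of assembly NC12. Most chaperones of this kind serve growing cells as well as heated ones, and heat raises their transcription through heat shock factors. No sample of the study was labelled as heat shocked.

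The study asked what loss of pas (NCU04278), which its title places with the PRC2 complex, does to chromatin and expression; PRC2 is the methyltransferase that lays down H3K27me2/3, a mark of repressed genes, with set-7 as its catalytic subunit. Poly-A RNA was sequenced from 2 wild type (WT) strains, N3752 (mat A) and N3753 (mat a), and from 2 strains with the genotype mat a; Dpas::nat-1, N7617 and N7680, here replicates 1 and 2 of each group. All cultures were labelled germinated conidia and had been shaken for 16 hours at 32 °C in Vogel's medium with 1.5% sucrose. Each strain gave 1 library, so the spread within a group is that between 2 strains, and p-values measure no more than that; WT replicate 1 differs from the other 3 libraries in mating type as well.

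The libraries held 7139105 to 14679872 reads in genes. Reads counted for pas itself were not absent: it stood at 119 and 95.1 normalized counts in WT, against 43.1 and 98.1 in ∆pas replicates 1 and 2. The log2 change was -0.70 ± 0.416 (SE; limma adjusted p = 0.371), so the mutant libraries are called ∆pas-labelled. In the authors' deposited comparison of ∆pas and WT it was -0.77 ± 0.357 (SE, p = 0.031 before and 0.4 after adjustment). Annotation and use of strand are not given, and whether these reads came from an intact pas transcript was not tested. Conidiation genes were not silent. The summed level of con-6, con-8, con-10 and eas was 14167 and 33246 normalized counts in WT, against 9758 and 7599 in the ∆pas-labelled libraries, with none of the 4 at 0; the lower sum was that of eas, while con-6 and con-8 stood higher in both ∆pas-labelled libraries. Reads outside annotated features took 15.2% of WT replicate 2 and 13.9% of ∆pas replicate 1, against 5.41% of WT replicate 1 and 6.76% of ∆pas replicate 2.

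None of the 6 chaperone genes differed past the threshold between the ∆pas-labelled libraries and WT. In a limma fit over all 8219 genes, 0 of 6 had an adjusted p under 0.05, where 0.365% of all genes did; the lowest adjusted p among the 6 was 0.138. Before adjustment 1 of the 6 (hsp98) was higher and 2 (hsp60 and grp78) were lower at a limma p under 0.05, where 10.2% and 11.1% of all genes were. On the recovered reads edgeR's quasi-likelihood test called 0 of the 6 and DESeq2 called 1 (hsp60), where DESeq2 called 8.34% of genes with an adjusted p. With ∆pas replicate 1 left out limma also called 1 of the 6, against 1103 of the 8219 genes. The genes did not share a direction. The disaggregase gene hsp98 was higher in both ∆pas-labelled libraries than in both WT libraries. The mitochondrial and endoplasmic reticulum chaperone genes hsp60 and grp78 were lower in both. The values of hsp70-1, hsp80 and hsp30 overlapped between the groups. Over all tested genes, 29.5% lay higher in both and 26.5% lower in both, so 1 of 6 and 2 of 6 are near the background.

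**Figure D1:**
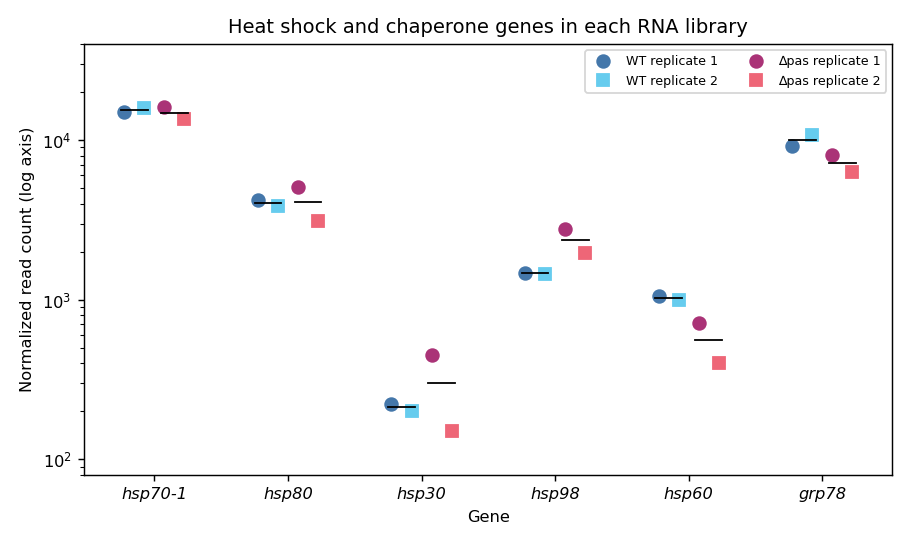
Normalized read count (log axis) of the 6 genes in each of the 4 RNA libraries, with a black line at the mean of each group (n = 2). The WT libraries lie close together for each gene, and ∆pas replicate 1 lies above ∆pas replicate 2 for each gene. Values are not corrected for gene length, so heights are to be compared within a gene.

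Among the cytosolic chaperones, hsp70-1 encodes an Hsp70, which holds short unfolded stretches of many clients in a cycle driven by ATP. Its level was 15087 and 15966 normalized counts in WT, against 16002 and 13464 in ∆pas replicates 1 and 2. Only ∆pas replicate 2 lay outside the WT range by more than a few percent of the level. The log2 change was -0.08 ± 0.162 (SE; 95% interval -0.47 to 0.31; limma adjusted p = 0.802). The interval leaves room for a rise or a fall smaller than these limits. Its share of all reads in genes was 0.131% (exact 95% interval 0.128 to 0.134) and 0.14% (0.138 to 0.143) in WT, and 0.139% (0.137 to 0.141) and 0.114% (0.113 to 0.116) in the ∆pas-labelled libraries. These intervals cover counting error only, and the gap between the ∆pas-labelled libraries exceeded it.

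The gene hsp80 encodes the fungus's Hsp90, a chaperone that completes the folding of kinases and other signalling proteins. It had 4219 and 3874 normalized counts in WT, against 5057 and 3122 in the ∆pas-labelled libraries. One of the latter lay above both WT libraries and the other below both. The group means were 4046 ± 244 and 4090 ± 1368 (SD, n = 2 each), with a log2 change of -0.02 ± 0.242 (SE; 95% interval -0.61 to 0.56; limma adjusted p = 0.968).

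The gene hsp30 encodes a small heat shock protein, a class that coats unfolding proteins without ATP. In WT it had 221 and 202 normalized counts, which rest on 137 and 195 reads. In ∆pas replicates 1 and 2 it had 451 and 150 normalized counts, resting on 575 and 174 reads. Thus ∆pas replicate 1 stood at more than the sum of both WT values and ∆pas replicate 2 below either. The ratio between the ∆pas-labelled libraries was 3.01, the widest of the 6 genes, and in size it exceeded that of 97.8% of tested genes; between the WT libraries the ratio was 1.1. The log2 change over WT was 0.30 ± 0.483 (SE; 95% interval -0.87 to 1.47; limma adjusted p = 0.75), and leaving out ∆pas replicate 2 or ∆pas replicate 1 moved it to 1.09 or -0.49 (limma adjusted p = 0.0809 and 0.233).

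The gene hsp98 encodes the relative of yeast Hsp104, a ring-shaped motor that pulls single proteins out of aggregates. It had 1480 and 1454 normalized counts in WT, against 2789 and 1968 in the ∆pas-labelled libraries. The WT libraries differed by less than the ∆pas-labelled libraries did, and neither of the latter reached down to WT. The means were 1467 ± 18.2 and 2378 ± 580 (SD, n = 2 each). The log2 change was 0.67 ± 0.199 (SE; 95% interval 0.19 to 1.16; limma adjusted p = 0.138). Over 15 other settings the log2 change ran from 0.42 without ∆pas replicate 1 to 0.93 without ∆pas replicate 2, and no adjusted p of limma, edgeR or DESeq2 was below 0.0589.

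The gene hsp60 encodes the mitochondrial chaperonin, a double ring in which proteins fold after import. It had 1049 and 993 normalized counts in WT, against 711 and 403 in the ∆pas-labelled libraries. Both of the latter were below WT, ∆pas replicate 2 the further. The means were 1021 ± 39.4 and 557 ± 218 (SD, n = 2 each). The log2 change was -0.93 ± 0.276 (SE; 95% interval -1.6 to -0.26; limma adjusted p = 0.138). DESeq2 on the recovered reads put hsp60 past the threshold (log2 change -0.89, adjusted p = 0.047), where it called 4.85% of genes with an adjusted p as lower. Without ∆pas replicate 1 limma did so too (log2 change -1.34, adjusted p = 0.01), while without ∆pas replicate 2 the log2 change was -0.52 (limma adjusted p = 0.201).

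The gene grp78 encodes the Hsp70 of the endoplasmic reticulum, known elsewhere as BiP or Kar2, which folds secreted proteins and is a classic target of the unfolded protein response. It had 9191 and 10703 normalized counts in WT, against 8100 and 6339 in the ∆pas-labelled libraries. The gap between the closest libraries of the groups was smaller than the gap within either group. The means were 9947 ± 1069 and 7220 ± 1245 (SD, n = 2 each). The log2 change was -0.47 ± 0.182 (SE; 95% interval -0.91 to -0.03; limma adjusted p = 0.213). Leaving out ∆pas replicate 2 moved this to -0.29, and leaving out ∆pas replicate 1 to -0.65.

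All 6 genes were higher in ∆pas replicate 1 than in ∆pas replicate 2, whereas 52.7% of tested genes were. The ratios ran from 1.19 for hsp70-1 through 1.28 for grp78, 1.42 for hsp98, 1.62 for hsp80 and 1.77 for hsp60 to 3.01 for hsp30. Between the WT libraries they ran from 0.859 to 1.1. These strains share the genotype label and differed in the share of reads outside features, and the part of that share in the gap was not tested. Within the pair with few such reads (WT replicate 1, ∆pas replicate 2) the log2 differences were -0.16 for hsp70-1, -0.43 for hsp80, -0.56 for hsp30, 0.41 for hsp98, -1.38 for hsp60 and -0.54 for grp78. Within the other pair they were 0.00, 0.38, 1.16, 0.94, -0.48 and -0.40 in the same order. The values of hsp80 and hsp30 differed in sign between the pairs. For both genes ∆pas replicate 1 lay above both WT libraries and ∆pas replicate 2 below both, so any pairing had to give this. For hsp98, hsp60 and grp78, whose groups do not overlap, no pairing could turn the sign.

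Ratios of 1 chaperone gene to another within a library do not depend on how the library was scaled. They were computed for all 15 pairs after the single values had been seen, and since the counts are not corrected for length only their change between libraries is read. The pairs reuse the same 6 genes, and since hsp98 lay above WT and both hsp60 and grp78 below it, the ratios of hsp98 to these had to separate. The widest shift was that of hsp98 over hsp60, at 1.41 and 1.46 in WT against 3.92 and 4.89 in the ∆pas-labelled libraries, 3.05 times as high by geometric means. For hsp98 over grp78 the ratios were 0.161 and 0.136 against 0.344 and 0.31. For hsp70-1 over hsp98 they were 10.2 and 11 against 5.74 and 6.84. With 2 libraries a group, an exact two-sided permutation test of a ratio cannot go below p = 0.333, so none was used.

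The ∆set-7 strain, which lacks the catalytic subunit of PRC2, was available here through the authors' deposited table of WT against ∆set-7; its libraries were not analysed here. The sign is given as mutant over WT, checked on set-7 itself, which was at -3.51 ± 0.4 (SE; adjusted p = 1.14e-15) in the authors' deposited table. That table called 0 of the 6 chaperone genes at an adjusted p under 0.05, where it called 5.31% of genes. The widest values in the authors' deposited table were 1.08 ± 0.455 for hsp30 (SE; p = 0.018 before and 0.164 after adjustment) and -0.67 ± 0.28 for grp78 (SE; p = 0.0166 before and 0.157 after adjustment). The other 4 genes ran from 0.08 for hsp60 to 0.35 for hsp80 in the authors' deposited table, with adjusted p-values of 0.685 to 0.933.

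**Figure D2:**
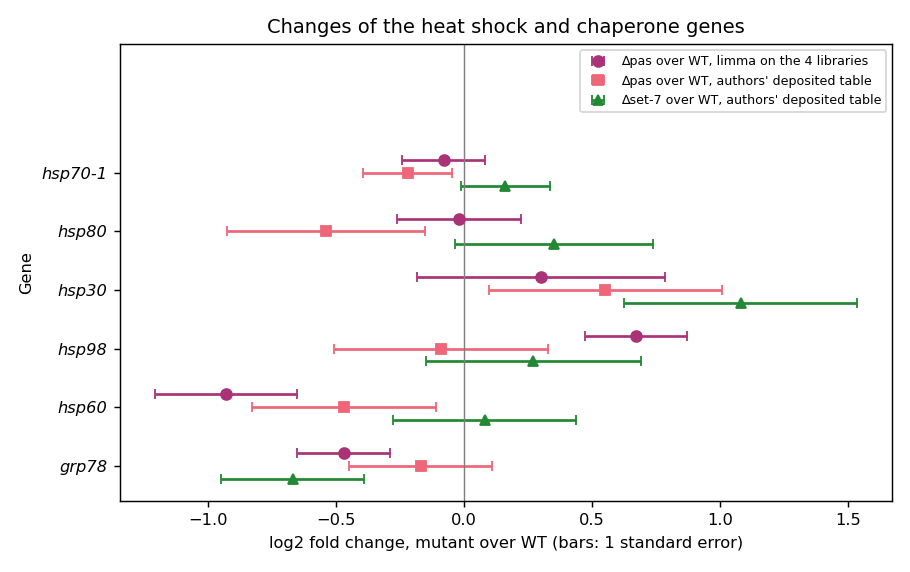
Log2 change of mutant over WT for the 6 genes, with bars of 1 standard error: ∆pas from limma on the 4 libraries, and ∆pas and ∆set-7 from the authors' deposited tables with the sign turned. The values for hsp98 in ∆pas lie at 0.67 in the 4 libraries and at -0.09 in the authors' table.

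The authors' own ∆pas comparison gave other values for some of the same genes. In the authors' deposited table for ∆pas, 0 of the 6 passed an adjusted p of 0.05, where 1.19% of genes did, and the log2 changes were -0.22 for hsp70-1, -0.54 for hsp80, 0.55 for hsp30, -0.09 for hsp98, -0.47 for hsp60 and -0.17 for grp78. The SEs ran from 0.174 for hsp70-1 to 0.455 for hsp30, with adjusted p-values of 0.663 to 0.965. The value of hsp98 (SE 0.419, adjusted p = 0.965) was not told apart from 0, so its sign was not determined. In the 4 libraries the log2 change of hsp98 was 0.67 ± 0.199 (SE, limma adjusted p = 0.138). Both deposited tables carry the same mean count for each tested gene, and for hsp98 that mean was 2700, against 1923 over the 4 libraries. The ratio of these means was 1.57 for hsp80, higher than for 91.2% of tested genes, and 1.4 for hsp98, higher than for 87.1%; the median gene had 1. The authors' fit therefore held libraries beyond these 4, and both deposited comparisons can share WT libraries with each other and with the limma fit. What separates those libraries from these was not tested.

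In position hsp70-1 differed from the other 5 genes. In the gene order of assembly NC12 it is gene 26 from an end of chromosome II, a region type that in this fungus carries much H3K27me2/3. Of its 10 nearest neighbours, 5 on each side, 8 were tested, and limma called 1, where it called 0.365% of all tested genes. In 5 of the 8 both ∆pas-labelled libraries lay above both WT libraries, where 29.5% of tested genes did. The called neighbour was NCU09604, removed from hsp70-1 by a single gene. It was at 25.8 and 17.6 normalized counts in WT, against 264 and 186 in the ∆pas-labelled libraries, a log2 change of 3.32 ± 0.325 (SE; limma adjusted p = 0.0273). The gene between them, NCU09603, had 4.84 and 1.03 normalized counts in WT, at or under the floor of 3 reads, and 39.2 and 63.7 in the ∆pas-labelled libraries (limma adjusted p = 0.0653). On the inner side NCU09600 was at 471 and 481 in WT, against 385 and 562 in the ∆pas-labelled libraries. Further in, NCU09599, NCU09598 and NCU09596 were higher in both, with log2 changes of 0.60, 0.49 and 1.34 (limma adjusted p = 0.198, 0.243 and 0.132). Toward the chromosome end NCU09608 lay lower in both (log2 change -0.50, limma adjusted p = 0.316). It had 95.2 and 121 normalized counts in WT, against 80.8 and 70.5. The authors' deposited table for ∆pas had NCU09604 at 3.22 and NCU09603 at 1.77 (adjusted p = 1.41e-14 and 0.091). There NCU09599, NCU09598 and NCU09596 were at 0.17, 0.47 and 1.08 (adjusted p = 0.907, 0.353 and 0.054). In the authors' deposited table for ∆set-7, NCU09604 was at 3.85 ± 0.37 (SE; adjusted p = 4.33e-22), NCU09598 at 0.74 ± 0.205 (SE; adjusted p = 0.0101), NCU09596 at 1.09 ± 0.326 (SE; adjusted p = 0.0212), NCU09603 at 1.46 ± 0.562 (SE; adjusted p = 0.111) and hsp70-1 at 0.16 ± 0.174 (SE; adjusted p = 0.685). Each of the other 5 chaperone genes lay at least 338 genes from its chromosome end.

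**Figure D3:**
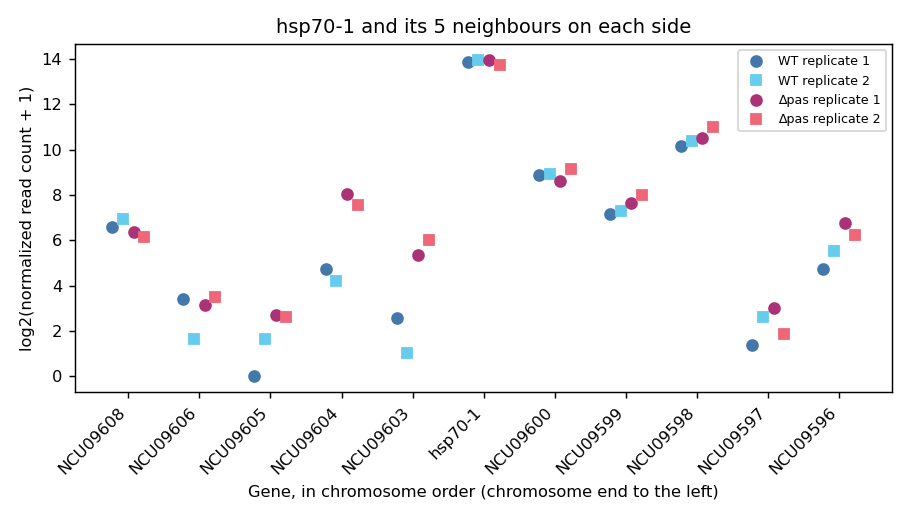
Log2(normalized read count + 1) of hsp70-1 and its 5 neighbours on each side in the 4 RNA libraries, in chromosome order with the chromosome end to the left. NCU09604 and NCU09603 are higher in both ∆pas-labelled libraries, while the 4 points of hsp70-1 lie together.

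Beside the other members, immediate neighbours were read from the same gene order. The prolyl isomerase gene fkr-2 lies next to hsp80 and was at 8210 and 8638 normalized counts in WT, against 7627 and 7023 in the ∆pas-labelled libraries, a log2 change of -0.20 ± 0.145 (SE; limma adjusted p = 0.458). Next to hsp98, NCU00105 was at 240 and 233 in WT, against 136 and 85.2 in the ∆pas-labelled libraries, the opposite side of WT from hsp98 (log2 change -1.13 ± 0.276, SE; limma adjusted p = 0.0991). DESeq2 called NCU00105 (adjusted p = 0.0222), while limma called no neighbour of the members other than NCU09604.

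The 2 genes of heat shock transcription factors stood higher in both ∆pas-labelled libraries, as 29.5% of tested genes did, without passing the limma threshold. The gene hsf-1 (NCU08512) was at 896 and 912 normalized counts in WT, against 1042 and 1107 in the ∆pas-labelled libraries, a log2 change of 0.25 ± 0.149 (SE; limma adjusted p = 0.376). Its relative hsf-2 (NCU08480) was at 521 and 624 in WT, against 754 and 840 in the ∆pas-labelled libraries, a log2 change of 0.48 ± 0.175 (SE; limma adjusted p = 0.195). In the authors' deposited table for ∆pas hsf-1 was at 0.00 ± 0.25 and hsf-2 at 0.25 ± 0.211 (SE; adjusted p = 0.999 and 0.736).

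Of the 5 further genes in the chaperone list, limma called 0, where it called 0.365% of all tested genes. All 5 had a log2 change below 0, where 3874 of 8219 tested genes did. The median was -0.27 against 0.03 for all tested genes. In 4 of 5 both ∆pas-labelled libraries lay below both WT libraries, where 26.5% of tested genes did. With ∆pas replicate 1 left out limma called 1 of the 5, hsp70-2, against 1103 of 8219 genes. DESeq2 on all 4 libraries called the same gene, against 8.34% of genes with an adjusted p. The Hsp70 gene hsp70-2 (NCU02075) was at 21643 and 20749 normalized counts in WT, against 12574 and 9230 in the ∆pas-labelled libraries. Its log2 change was -0.98 ± 0.192 (SE; limma adjusted p = 0.0786, DESeq2 adjusted p = 0.0011). In the authors' deposited table for ∆pas hsp70-2 was at -0.35 ± 0.44 (SE; adjusted p = 0.843). That table had all 5 of the list below 0 and called 0 of them, where it called 1.19% of genes. The Hsp70 gene hsp70-5 (NCU08693) was at 3455 and 3913 in WT, against 2571 and 2600 in the ∆pas-labelled libraries (log2 change -0.51 ± 0.147, SE; limma adjusted p = 0.135). Its larger relative hsp88 (NCU05269), of the Hsp110 group, had a log2 change of -0.27 ± 0.142 (SE; limma adjusted p = 0.325). The remaining pair, NCU09265 and NCU09223, carry no symbol and had log2 changes of -0.19 and -0.24 here (limma adjusted p = 0.464 and 0.549). In the authors' deposited table for ∆set-7 these were the only 2 of the 5 past an adjusted p of 0.05, where 5.31% of genes were. They were at -0.41 ± 0.0922 and -0.69 ± 0.197 in the authors' deposited table (SE; adjusted p = 6e-04 and 0.0135).

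A second list held 7 folding genes picked by symbol after the reference table was seen. Of these limma called 0, where it called 0.365% of all tested genes. DESeq2 called 1 (fkr-4), where it called 8.34% of genes with an adjusted p. The median log2 change of the list was -0.12, with 2 above 0 and 5 below, where 3874 of 8219 tested genes were below. The disaggregase gene hsp78, whose yeast counterpart works in mitochondria, was at 395 and 445 normalized counts in WT, against 564 and 634 in the ∆pas-labelled libraries (log2 change 0.51 ± 0.174, SE; limma adjusted p = 0.175). Like hsp98, it stood higher in both. At the other end, fkr-4 was at 1273 and 1083 in WT, against 572 and 372 in the ∆pas-labelled libraries. Its log2 change was -1.34 ± 0.24 (SE; limma adjusted p = 0.0692, DESeq2 adjusted p = 0.000169). In the authors' deposited table for ∆pas fkr-4 was at -0.74 ± 0.411 (SE; adjusted p = 0.519). That table called 0 of the 7, where it called 1.19% of genes. In the authors' deposited table for ∆set-7, fkr-3 was the single gene of the list past an adjusted p of 0.05, where 5.31% of genes were. It was at -1.53 ± 0.36 in the authors' deposited table (SE; adjusted p = 0.00124). The cyclophilin gene csr-1 and the endoplasmic reticulum disulfide isomerase gene erp38 had log2 changes of -0.12 and 0.05 (limma adjusted p = 0.7 and 0.867).

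Because hsp60 acts on proteins that have crossed the mitochondrial membranes, the genes of protein import were set beside it, as a list of all tim, tom and tob symbols added after its values had been seen. Of these 21 genes 0 were called by limma, where it called 0.365% of all tested genes. In the lower direction 14 had an unadjusted limma p under 0.05, where 11.1% of tested genes did. In 17 of 21 both ∆pas-labelled libraries lay below both WT libraries, where 26.5% of tested genes did, and the median log2 change was -0.60. DESeq2 called 5 of the 21 lower, where it called 4.85% of genes with an adjusted p as lower. The gene tom40, the pore of the outer membrane, was at 1546 and 1598 normalized counts in WT, against 961 and 777 in the ∆pas-labelled libraries (log2 change -0.86 ± 0.169, SE; limma adjusted p = 0.0786). The receptor gene tom22 was at 1257 and 1225 in WT, against 808 and 800 in the ∆pas-labelled libraries (log2 change -0.63 ± 0.147, SE; limma adjusted p = 0.0949). The receptor gene tom70 had a log2 change of -0.58 ± 0.16 (SE; limma adjusted p = 0.123).

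The exceptions were tob37, at 0.50, and tim14, the J protein of the import motor, at 0.22. In the authors' deposited tables the median of the list was -0.26 for ∆pas and -0.30 for ∆set-7, with 18 of 21 below 0 in each. The medians of all genes there were -0.05 and -0.07. These comparisons can share WT libraries. At an unadjusted p under 0.05, the authors' deposited table for ∆pas had 0 of the 21 in either direction. Of all 9594 genes there, 470 were lower and 397 higher at that threshold. The lowest adjusted p of the list in the authors' deposited table for ∆pas was 0.561. For ∆set-7, 2 of the 21 were lower and 1 higher before adjustment, where 963 and 622 of 9594 genes were. After adjustment the authors' deposited table for ∆set-7 called 1 of the 21, where it called 5.31% of genes. The called gene, tim9, was at -0.89 ± 0.262 in the authors' deposited table (SE; adjusted p = 0.0187).

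**Figure D4:**
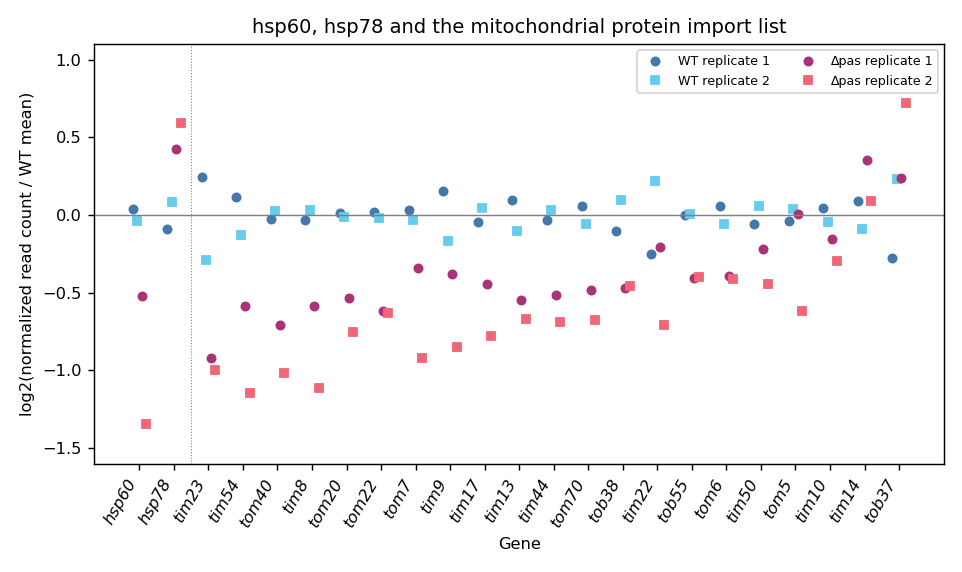
Log2 of the normalized read count over the WT mean in each of the 4 RNA libraries, for hsp60, hsp78 and the 21 genes of the mitochondrial protein import list in order of their change. Both ∆pas-labelled libraries lie below both WT libraries for hsp60 and 17 of the 21 list genes, and above them for hsp78, tim14 and tob37.

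As a second arm of protein quality control, the regulatory particle of the proteasome, which unfolds tagged proteins for degradation, was listed by its rpn and rpt symbols, also after the values of the 6 genes had been seen. Of 17 genes limma called 0, where it called 0.365% of all tested genes. At an unadjusted limma p under 0.05 there were also 0, where 10.2% of tested genes were higher and 11.1% lower. DESeq2 called 0, where it called 8.34% of genes with an adjusted p. The log2 changes ran from -0.25 for rpt-3 to 0.19 for rpt-5 (limma adjusted p = 0.385 and 0.47), with a median of 0.00. Of the 17, 9 were above 0 and 8 below, where 52.9% of tested genes were above 0. All 17 were above 0 in the authors' deposited table for ∆pas, where 4206 of 9594 genes were. The median there was 0.23 against -0.05 for all genes. That table had 0 of the 17 past an adjusted p of 0.05, where 1.19% of genes were. For ∆set-7 the median in the authors' deposited table was -0.06, with 5 above 0 and 12 below. The most counted, rpn-4, whose namesake in budding yeast is a transcription factor of proteasome genes rather than a subunit, was at 12148 and 12881 normalized counts in WT, against 11265 and 14742 in the ∆pas-labelled libraries (log2 change 0.04 ± 0.181, SE; limma adjusted p = 0.916).

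The genes whose profile over the 4 libraries lay nearest to a chaperone gene were found by the Euclidean distance of log2 values centred on each gene, among 6772 genes that averaged 50 normalized counts or more. For hsp30, the widest in range, the nearest were NCU01735, NCU03863, NCU08447, ecd-2 and ncw-5, at distances of 0.0587, 0.126, 0.192, 0.233 and 0.238. The first of them, NCU01735, was at 844 and 759 normalized counts in WT, against 1754 and 595 in ∆pas replicates 1 and 2. For hsp70-1 they were rdi-1, NCU09546, NCU03335, NCU07691 and NCU01587, at 0.0242 to 0.0404; the last of these is the neighbour of hsp60. With 4 libraries many profiles lie close by, and the distances describe these libraries.

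A lower normalized count in RNA from a whole culture can come from fewer cells of a kind or from less RNA per cell, which cannot be told apart here. The general mycelial genes act, Bml (beta-tubulin) and gpd-1 had log2 changes of -0.36, -0.25 and 0.52, none past the threshold (limma adjusted p = 0.274, 0.457 and 0.197), so the differences of grp78 and hsf-2 were no wider than that of gpd-1, a gene often used as a reference. The conidiation gene eas lay outside the WT range further than any chaperone gene on the log2 scale, at 8931 and 30017 normalized counts in WT, against 3311 and 2983 (log2 change -2.38 ± 0.512, SE; limma adjusted p = 0.0833), and con-6 stood at 636 and 562 against 999 and 1157 (log2 change 0.85 ± 0.169, SE; limma adjusted p = 0.0797). Their part in the chaperone differences was not tested.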

How the data were processed

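Per the file headers, the authors' main table holds a normalized read count (a signal) per gene. It covers the 4 RNA libraries and 4 columns that match no sample of the series and were not used. In each library 100% of gene values came out whole (within 0.01 of a read) after division by a single step, which gave the reads. Bowtie2, deepTools and DESeq2 are named in the submitters' processing notes; the counter, annotation, build and use of strand are not given in the sources used here. Overlapping genes are therefore uncertain, and reads shared by Hsp70 paralogs may sit among the 2.13% to 3.57% kept apart as multimapping. The 4 summary entries (12.1% to 22% of reads) were left out. The authors also deposited 2 comparison tables, with log2 fold changes, p-values, a Wald score and a mean-count signal per the file headers; the sign was turned here, and how these fold changes were estimated is not stated.

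Tests ran on log2(normalized count + 1) for the 8219 genes averaging 5 normalized counts or more, using limma 3.58.1 (R 4.3.3, intensity trend, group as the only term, 2 residual and 4.34 prior degrees of freedom), two-sided, with Benjamini-Hochberg adjustment over all tested genes. This scale understates changes of low genes. The recovered reads were tested with edgeR 4.0.16 and DESeq2 1.42.0; all 3 tools were tested on simulated data. A count of 0 allows 3 reads, or 2.35 to 4.84 normalized counts. Replicates were numbered in sample order and pair no libraries. The members, lists and tests were chosen with earlier results of these data known. Named genes were the members, some of their neighbours, list genes past the threshold and, per list, the 3 with the highest mean and the 2 with the lowest p. In the proteasome list rpn-1 and rpn-3 met this rule and were not described. The genes tob37, tim14, tim9, fkr-3, NCU00105 and NCU09608 were named after their values were seen. Lists by product name could not be built from a reference table of symbols, so the list fixed for that case was used. Levels per length were not computed because no build is named. The 4 ChIP libraries were not analysed here.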

Additional observations from a re-analysis of the deposited data

How the results depend on the processing

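For hsp98, hsp60 and grp78, whose groups do not overlap, leaving out a library or pairing libraries cannot turn the sign; over all 15 other settings their adjusted p-values of limma, edgeR and DESeq2 ran from 0.0589 to 0.606, from 0.01 to 0.617 and from 0.054 to 0.616. The number of chaperone genes called rose from 0 to 1 with DESeq2, and was 0 to 1 with 1 library left out; the gene was hsp60 (-0.89 with DESeq2; -1.34 to -0.52 with 1 library left out). The further list of 5 likewise gave 1 with DESeq2 and 0 to 1 with 1 library left out. The sign of hsp70-1 turned with quantile scaling (0.11), within the pair of WT replicate 2 and ∆pas replicate 1 (0.00), and with libraries left out (-0.20 to 0.04). That of hsp80 turned with edgeR (0.00), within the same pair (0.38) and with libraries left out (-0.37 to 0.32). That of hsp30 turned within the pair of WT replicate 1 and ∆pas replicate 2 (-0.56) and with libraries left out (-0.49 to 1.09). For hsp80 and hsp30 the ∆pas-labelled libraries lie on opposite sides of both WT libraries. Turns by pair, or by a ∆pas-labelled library left out, were therefore fixed for these genes. Against 30 genes called in all, there were 18 with all genes with any reads, 19 with quantile scaling, 7 without a trend, 13 with the share of reads outside features as a covariate, 606 with DESeq2, and 0 to 1103 with 1 library left out (0 without either WT library, 1103 without ∆pas replicate 1); the cause was not tested. Without ∆pas replicate 1, limma called 10 of the 21 import genes. A group left with 1 library is assumed to vary like the other. The pair values were added after seeing the data. No paired analysis was possible because the labels number no replicates. Depth limits hsp30 most, at 137 to 575 reads a library.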
